A study of Mus musculus with 27 samples.

Results

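The prostaglandin and leukotriene synthesis genes are *Hpgds*, *Hpgd*, *Ptgs1*, *Ptgs2*, *Ptges*, *Tbxas1*, *Alox5*, *Alox5ap*, *Lta4h* and *Ltc4s*. They were listed by name as the enzymes of these lipid mediators. Each was read from a transcript annotated with its symbol alone, the transcript of highest mean where a gene had more than 1. Of the 10 genes, 9 pair with such a transcript, among 21666 genes in all, and *Ptgs1* is not analysed here.

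The values are log2 signals of 27 samples in 9 groups, all of C57BL/6 background, each on its own whole-transcript microarray. F4/80hi cells (4 weeks, n = 2; 12 weeks, n = 3) and F4/80low cells (n = 3 at each time) were sorted from the brains of Cx3cr1CreER/+R26DTA/+ mice after tamoxifen (TAM), in which diphtheria toxin A is switched on in cells that express *Cx3cr1* and microglia are depleted. F4/80hi cells are the engrafting macrophages and F4/80low cells the microglia that repopulate by proliferation. DTR microglia (n = 2) came from Cx3cr1CreER/+R26DTR/+ mice, sorted 2 weeks after diphtheria toxin, which followed TAM by 3 weeks. By the labels naive microglia (n = 5) came from untreated mice or from TAM-treated Cx3cr1CreER/+ controls, while the study's own description of these arrays names the TAM-treated controls alone. Splenic red pulp macrophages (RPM, n = 2), intestinal macrophages (n = 2) and bone marrow Ly6Chi monocytes (n = 5) came from naive mice. Mice were 6 to 12 weeks old at the start, and each sample pooled 2 to 5 of them. Cre is driven by the *Cx3cr1* promoter and so acts in any cell that uses it, and F4/80hi and F4/80low cells are defined by a sorting gate. Naive microglia and monocytes have 3 biological and 2 technical arrays, which the labels do not tell apart, and repeats counted as samples make p-values too small.

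Prostaglandins and leukotrienes are short-lived lipid signals made from arachidonic acid, which phospholipases release from membranes. In the prostaglandin branch, the cyclooxygenases encoded by *Ptgs1* and *Ptgs2* form an unstable endoperoxide that terminal synthases turn into prostaglandin D2 (*Hpgds*), prostaglandin E2 (*Ptges*) or thromboxane (*Tbxas1*), and *Hpgd* begins the breakdown of prostaglandins. In the leukotriene branch, 5-lipoxygenase (*Alox5*), presented with its substrate by the membrane protein encoded by *Alox5ap*, forms leukotriene A4, which *Lta4h* turns into the leukocyte attractant leukotriene B4 and *Ltc4s* into leukotriene C4, the first of the cysteinyl leukotrienes. In the brain, microglia are known as a source of prostaglandin D2.

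The start regions of 4 members are printed because these genes moved in different ways in the results that follow. *Ltc4s* and *Hpgd* were higher in microglia than in monocytes, *Lta4h* was lower, and *Ptgs2* had the widest range among tissue macrophages. Each runs from 250 bases before to 30 bases after the transcription start, 5′ to 3′ on the gene's strand (RefSeq, GRCm38.p6). They lie at chr1:150099781-150100060 (plus strand), chr8:56294302-56294581 (plus), chr10:93453146-93453425 (plus) and chr11:50238503-50238782 (minus). Capitals mark matches, on either strand, to the motifs searched, the GC box excepted.
Ptgs2: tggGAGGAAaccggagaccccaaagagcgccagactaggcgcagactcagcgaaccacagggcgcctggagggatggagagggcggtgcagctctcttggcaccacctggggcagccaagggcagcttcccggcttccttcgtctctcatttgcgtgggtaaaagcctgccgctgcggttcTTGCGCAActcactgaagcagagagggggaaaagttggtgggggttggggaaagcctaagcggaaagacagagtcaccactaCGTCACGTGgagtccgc
Hpgd: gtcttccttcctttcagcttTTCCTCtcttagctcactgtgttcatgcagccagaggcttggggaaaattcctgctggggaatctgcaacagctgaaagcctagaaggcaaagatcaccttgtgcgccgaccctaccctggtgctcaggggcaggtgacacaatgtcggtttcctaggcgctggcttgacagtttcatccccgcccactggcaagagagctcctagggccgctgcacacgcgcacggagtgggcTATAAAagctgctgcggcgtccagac
Lta4h: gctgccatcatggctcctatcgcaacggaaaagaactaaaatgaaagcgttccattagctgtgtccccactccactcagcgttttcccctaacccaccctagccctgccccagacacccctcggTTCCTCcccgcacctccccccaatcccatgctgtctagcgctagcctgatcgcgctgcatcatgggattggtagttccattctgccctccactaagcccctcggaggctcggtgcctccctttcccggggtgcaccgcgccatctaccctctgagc
Ltc4s: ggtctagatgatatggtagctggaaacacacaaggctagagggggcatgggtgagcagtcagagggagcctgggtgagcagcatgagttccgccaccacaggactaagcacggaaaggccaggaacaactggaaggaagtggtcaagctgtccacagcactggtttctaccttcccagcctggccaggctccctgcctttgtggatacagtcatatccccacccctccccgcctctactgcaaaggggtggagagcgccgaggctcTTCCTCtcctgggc

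RefSeq start regions of 9 of the 10 listed genes were found, *Ptgs1* included and *Alox5ap* not. The letters GAGGAA, the core bound by PU.1, a factor of myeloid cells, stood in the 300-base window of 9 of those 9 genes, against 28.3% of 32851 windows of all genes. *Lta4h*, *Ltc4s* and *Hpgd* hold these letters alike, and a link between them and the levels was not tested. *Ptgs2* alone among the 9 holds TTGCGCAA, the palindromic C/EBP site (0.183% of windows), and the run CGTCACGTG, in which the reverse of TGACG, the core of a cAMP response element, overlaps the E-box CACGTG (20.8% and 7.15% of windows). *Hpgd* and *Tbxas1* hold TATAAA, the letters of the TATA box (13.6%), and *Tbxas1* the AP-1 site TGANTCA (7.81%). Relative to the start, TATAAA begins at 4 in *Hpgd*, past the start, and at -13 and -11 in *Tbxas1*. The GC box GGGCGG, left in lower case in the printed runs, stood in 4 of 9 windows (35.7%). No window of the 9 holds TGACGTCA (1.79%), the NF-kB site (1.2%) or the interferon-stimulated response element (3.44%). A match is a run of letters only.

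Marker lists of microglia, monocytes and RPM summed highest in the arrays so labelled. That of 5 intestinal macrophage markers did not, at 12.48 to 12.58 in intestinal macrophages and 13.30 to 13.49 in naive microglia. Intestinal macrophages also carried the 4 measured monocyte markers (11.40 to 11.73, against 14.17 to 14.25 in monocytes). Array medians lay between 5.06 and 5.23, so a signal near 5 cannot be told from background. Summed over 5 measured microglia markers, the signal was 13.28 to 14.42 in the CNS groups and 7.83 to 10.55 in the other populations. *Sall1*, a microglial transcription factor, was at 6.4 to 7.3 in F4/80hi cells at 12 weeks but at 9.9 and 10.6 at 4 weeks, against 11.2 to 11.6 in naive microglia. Summed over 8 neutrophil markers, it was 13.27 to 13.44 in 3 arrays at 4 weeks (F4/80hi array 1, F4/80low arrays 1 and 2) and 10.29 to 10.50 in the other two, against 8.17 to 8.92 in the other CNS groups. The monocyte arrays carried these markers as well (12.75 to 13.36). Summed over 6 markers of border macrophages, the signal was 10.65 and 11.21 in F4/80hi cells at 4 weeks and 10.34 to 11.06 at 12 weeks, against 7.98 to 8.23 in F4/80low cells at 12 weeks and 7.71 to 8.28 in naive microglia. Array 2 of F4/80hi cells at 4 weeks and array 3 of naive microglia share 245 transcripts that stand over 2-fold above the other arrays of their own group. Intestinal macrophages carried plasma cell and B cell transcripts (summed signal 13.53 to 13.62, against 6.63 to 6.89 in naive microglia).

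A call between groups needed both a Benjamini-Hochberg adjusted p below 0.05 and more than a 2-fold change, in limma's fit of all 27 arrays with a mean per group and a term for the array batch. With that term, fitted log2 differences need not equal the gap between plain means. As the samples are bulk, fewer cells that express a gene and less RNA per cell cannot be told apart. F4/80hi cells and naive microglia were first set against Ly6Chi monocytes. Against monocytes, 7 of 9 members were called in F4/80hi cells at 12 weeks, where 14.2% of all tested transcripts were called. At 4 weeks 7 of 9 were called, where 12.5% of all transcripts were. In naive microglia against monocytes 5 of 9 were called (14.6% of all transcripts). The median log2 difference of the 9 members was 1.53, 1.76 and 0.97 in these 3 comparisons, against 0.02, -0.04 and 0.01 over all transcripts. The 3 comparisons share the monocyte arrays. After quantile normalization the split of all calls moved, to 2030 higher and 2168 lower in F4/80hi cells at 12 weeks, where the values as deposited gave 1495 and 3099, and to 2119 and 2282 in naive microglia, where they gave 1766 and 2952.

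**Figure D1:**
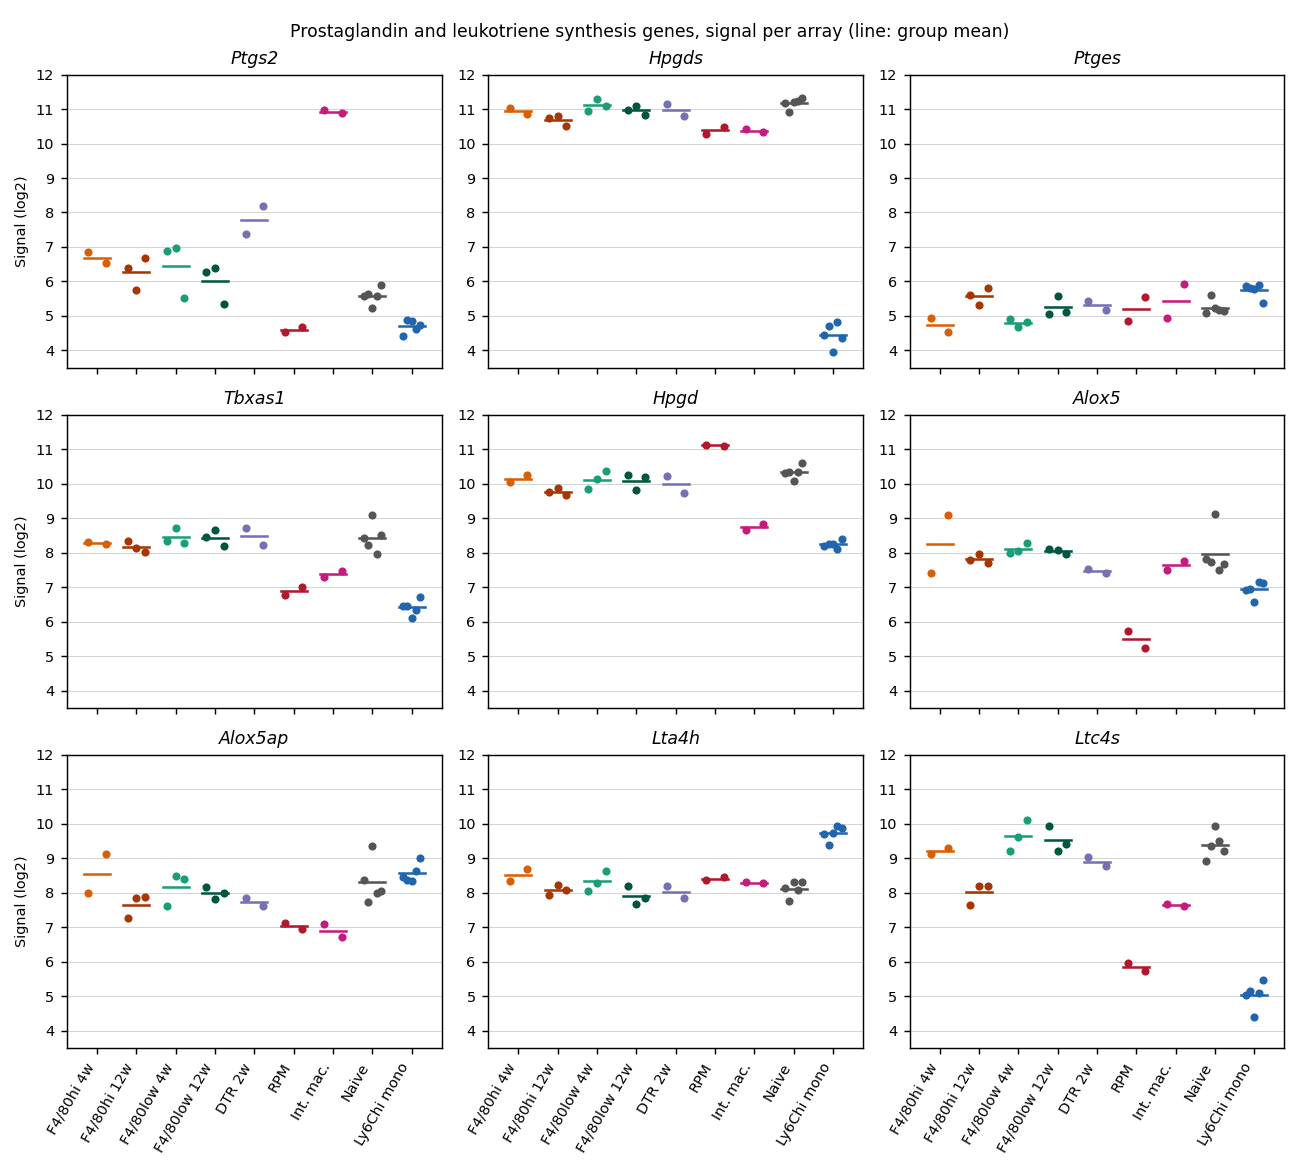
Log2 signal of the 9 measured members (vertical axis) in each group (horizontal axis), where points are arrays and lines are group means. Levels may be compared between groups within a panel and not between genes. *Hpgds* lies at 10.29 or above in all groups but monocytes, where it is at or below 4.82, and *Ptgs2* stands highest in intestinal macrophages.

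Few transcripts of any kind were called between the repopulating CNS groups and naive microglia, so low counts of members say little about these genes. Called members numbered 1 of 9 in F4/80hi cells at 12 weeks (2.99% of all transcripts), 0 at 4 weeks (2.55%), 0 in F4/80low cells at 4 weeks (1%), 0 at 12 weeks in the same cells (0.115%) and 1 in DTR microglia (0.754%). These 5 comparisons share the naive arrays. The members' median differences lay between -0.19 and -0.04, against -0.04 to 0.01 over all transcripts. Between F4/80hi and F4/80low cells 1 of 9 was called at 12 weeks (2.51% of all transcripts) and 0 at 4 weeks (0.44%). From 4 to 12 weeks 0 of 9 passed the test in F4/80hi cells (0.171%) and 0 in F4/80low cells (0.183%). All 4-week arrays are of 1 batch and all 12-week arrays of the other, so the comparison over time rests on the batch term, and without that term *Ltc4s* was called in F4/80hi cells (-1.19, adjusted p = 0.0342).

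In the other tissue macrophages more was called, both among the members and among all transcripts. RPM differed from naive microglia in 4 of 9 members (15.8% of all transcripts) and intestinal macrophages in 5 of 9 (13%). F4/80hi cells at 12 weeks differed from RPM in 5 of 9 (16%) and from intestinal macrophages in 2 of 9 (11.4%), a count that was 5 after quantile normalization, 1 with arrays centred on their median and 1 to 3 with single arrays left out. Both comparisons of F4/80hi cells cross array batches and rest on the batch term. Over all 36 pairs of groups, *Ltc4s* was called in 22, *Ptgs2* in 21, *Hpgd* in 18, *Tbxas1* in 16, *Alox5* in 11, *Alox5ap* in 10, *Hpgds* and *Lta4h* in 8 each and *Ptges* in 0. Together these are 114 of 324 combinations of gene and pair, against 8.35% over all transcripts.

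**Figure D2:**
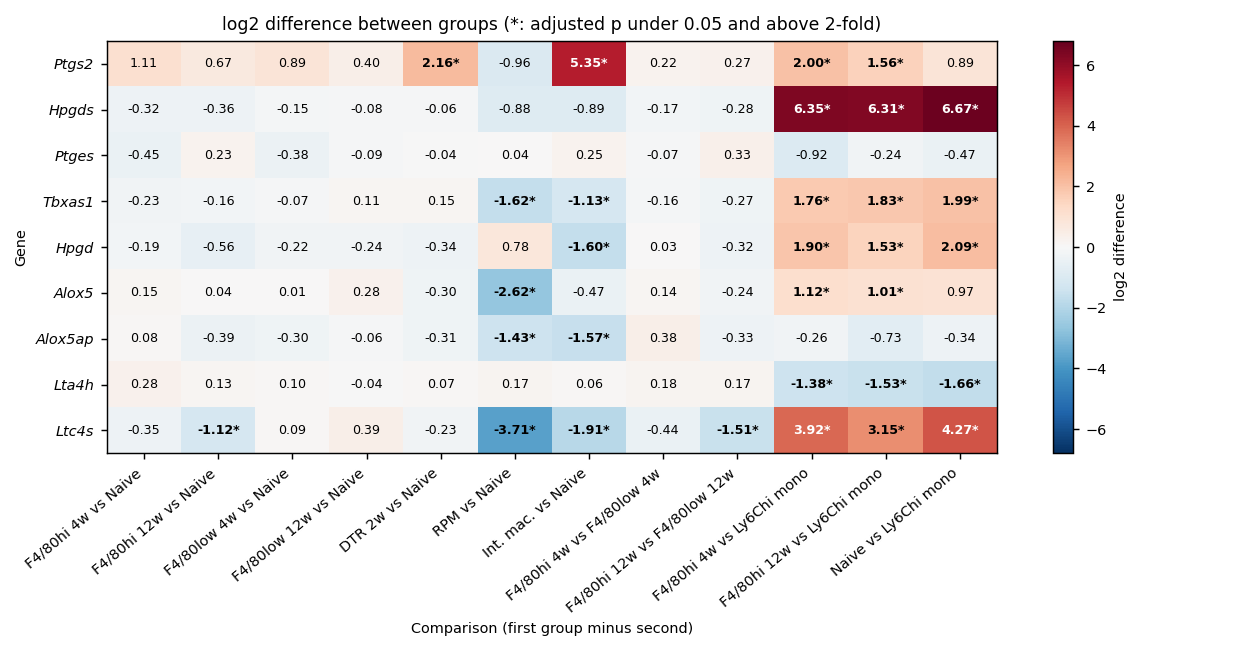
Log2 differences of the 9 members (rows) in 12 comparisons (columns, first group minus second), with red for higher and blue for lower in the first group and an asterisk for a call. Against monocytes most rows are red, while in the CNS groups set against naive microglia the calls are *Ltc4s* in F4/80hi cells at 12 weeks and *Ptgs2* in DTR microglia.

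*Ptgs2*, the inducible cyclooxygenase, varied most between tissue macrophages. Its signal was 10.97 and 10.87 in intestinal macrophages, against 5.59, 5.64, 5.23, 5.57 and 5.91 in naive microglia. RPM read 4.54 and 4.67, and Ly6Chi monocytes 4.41, 4.90, 4.86, 4.61 and 4.75. Intestinal macrophages thus stood above every array of the other groups, and RPM and monocytes lay below every array's median. The log2 difference of intestinal macrophages from naive microglia was 5.35 (SE 0.34, 40.9-fold, adjusted p = 7.23e-12). In RPM against naive microglia it was -0.96 (adjusted p = 0.0339), under the 2-fold limit.

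Within the CNS, *Ptgs2* was highest in DTR microglia. The 2 arrays read 7.36 and 8.18, and the 5 naive arrays 5.91 or less. The groups did not overlap, with a log2 difference of 2.16 (SE 0.36, 95% interval 1.42 to 2.90, 4.47-fold, adjusted p = 0.00121). Without DTR array 2 the difference was 1.75 and no longer passed (adjusted p = 0.0844). The summed neutrophil marker signal was 8.47 and 8.61 in the DTR arrays and 8.35 to 8.79 in naive arrays. That of 4 eosinophil markers was 8.89 and 8.54 in the DTR arrays, above the 7.41 to 8.15 of naive arrays. Of these markers *Siglecf* read 8.64 and 8.19 in DTR microglia and 6.72 to 7.74 in naive microglia, while the defining *Epx*, *Prg2* and *Ccr3* read below the array median in both DTR arrays. The part of these transcripts in the *Ptgs2* value was not tested. Set against DTR microglia, *Ptgs2* was also lower in F4/80hi cells at 12 weeks (log2 difference -1.49, adjusted p = 0.0113) and in F4/80low cells at 12 weeks (-1.76, adjusted p = 0.0141), groups that differ from it in model and time.

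In the DTA model the group means of *Ptgs2* lay between those of DTR and naive microglia. F4/80hi cells read 6.84 and 6.52 at 4 weeks and 6.39, 5.76 and 6.69 at 12 weeks. F4/80low cells read 6.88, 6.98 and 5.53 at 4 weeks and 6.27, 6.40 and 5.35 at 12 weeks. In either F4/80low group, and in F4/80hi cells at 12 weeks, 1 array fell within the naive range and the other two lay above it. The log2 difference from naive microglia was 1.11 in F4/80hi cells at 4 weeks (adjusted p = 0.072) and 0.67 at 12 weeks (0.305), and 0.89 in F4/80low cells at 4 weeks (0.189) and 0.40 at 12 weeks (0.981). None was called, although without F4/80low array 3 at 4 weeks that group's difference was 1.36 (adjusted p = 0.00511). At 4 weeks the F4/80low arrays of high *Ptgs2* were the neutrophil-rich ones: arrays 1 and 2 had summed neutrophil signals of 13.44 and 13.27 and array 3 of 10.29. Arrays 1 and 2 were also higher in 4 measured monocyte markers (9.44 and 10.19, against 8.15) and in the border macrophage markers (9.80 and 9.84, against 8.52). Without F4/80hi array 1 and those 2 F4/80low arrays, the difference was 0.95 in F4/80hi cells (adjusted p = 0.184) and -0.04 in F4/80low cells (adjusted p = 0.988), with 1 array left in each group. At 12 weeks the summed neutrophil signal was 8.17 to 8.92 in all 6 arrays. Monocyte arrays, with neutrophil signals of 12.75 to 13.36, read *Ptgs2* at 4.41 to 4.90. The part of these marker lists in the *Ptgs2* values was not tested.

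**Figure D3:**
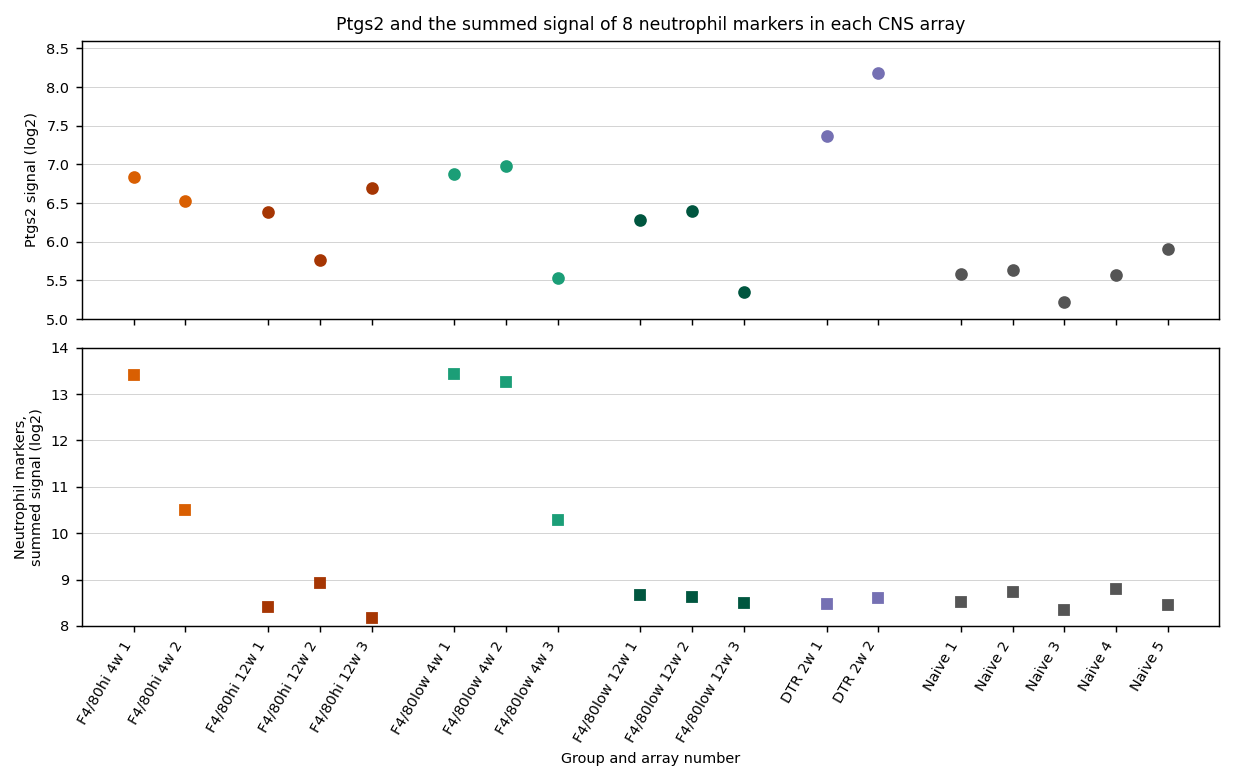
*Ptgs2* signal (top, log2) and the summed signal of 8 neutrophil markers (bottom, log2) in each CNS array, with groups along the horizontal axis. The 2 DTR arrays have the highest *Ptgs2* and a neutrophil signal of 8.47 and 8.61, while F4/80low array 3 at 4 weeks is lower in both measures than arrays 1 and 2.

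F4/80hi cells exceeded monocytes in *Ptgs2* by a log2 difference of 2.00 at 4 weeks (SE 0.36, adjusted p = 1.30e-04) and 1.56 at 12 weeks (SE 0.30, adjusted p = 2.15e-04), with no overlap. Naive microglia exceeded them by 0.89 (adjusted p = 0.00677), under the 2-fold limit. Over the 9 group means, the genes whose pattern was most like that of *Ptgs2* were *Gnl3* (r = 0.979), *Ccl7* (0.974) and *Zc3h12a* (0.971), among 3036 genes whose group means span at least 2 on the log2 scale.

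*Hpgds*, the haematopoietic prostaglandin D synthase, separated macrophages from monocytes. It was at 4.45, 4.70, 3.97, 4.82 and 4.37 in Ly6Chi monocytes, under the median of these arrays. F4/80hi cells read 11.03 and 10.85 at 4 weeks and 10.75, 10.81 and 10.50 at 12 weeks. No array of another group came near the monocyte values, since the lowest of them, in RPM, was 10.29. The log2 difference from monocytes was 6.35 in F4/80hi cells at 4 weeks (SE 0.19, adjusted p = 2.07e-17), 6.31 at 12 weeks (SE 0.16, adjusted p = 3.84e-19) and 6.67 in naive microglia (SE 0.13, adjusted p = 1.93e-21). The last is 102-fold on the scale of the signals, of which the monocyte part lies in the range of background.

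Among macrophages *Hpgds* varied little. Naive microglia read 11.18, 10.90, 11.21, 11.24 and 11.33, and F4/80low cells 10.95, 11.29 and 11.10 at 4 weeks and 10.96, 11.10 and 10.83 at 12 weeks. DTR microglia read 11.16 and 10.80, RPM 10.29 and 10.48, and intestinal macrophages 10.43 and 10.32. RPM and intestinal macrophages lay below every microglial array, with log2 differences from naive microglia of -0.88 (adjusted p = 4.72e-04) and -0.89 (5.23e-04), under the 2-fold limit. In F4/80hi cells at 12 weeks the difference from naive microglia was -0.36 (95% interval -0.71 to -0.00, adjusted p = 0.302), which did not pass. In the order of group means each fitted step between the 8 groups above monocytes was 0.52 or less in size, and no neighbours among them differed by the test (adjusted p of 0.109 or more). Genes of the most similar pattern were *Cd300c2* (r = 0.997), *Lgmn* (0.996) and *C1qa* (0.995) over the 9 group means.

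*Ptges*, the inducible prostaglandin E synthase, was near the array median in all groups. Its arrays read between 4.53 and 5.92 over the whole series. Of the 36 pairs of groups 0 were called, against 8.35% over all transcripts. The highest mean was that of monocytes (5.75 ± 0.21, SD, n = 5), and F4/80hi cells at 4 weeks, at 4.94 and 4.53, lay below each of them (log2 difference -0.92, SE 0.25, adjusted p = 0.00886). That difference was under 2-fold, became -1.12 (adjusted p = 0.0187) without F4/80hi array 1 and the 2 neutrophil-rich F4/80low arrays, and lies where signal cannot be told from background.

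*Tbxas1*, thromboxane A synthase, was alike in the CNS groups. F4/80hi cells read 8.32 and 8.25 at 4 weeks and 8.34, 8.14 and 8.02 at 12 weeks, against 8.42, 8.24, 9.08, 7.96 and 8.50 in naive microglia. Monocytes read 6.45, 6.47, 6.10, 6.35 and 6.70, RPM 6.76 and 7.02, and intestinal macrophages 7.30 and 7.48. No array of these 3 populations reached the lowest CNS array, in naive microglia. The log2 difference from monocytes was 1.76 in F4/80hi cells at 4 weeks (SE 0.24, adjusted p = 3.15e-06), 1.83 at 12 weeks (SE 0.20, adjusted p = 7.72e-08) and 1.99 in naive microglia (SE 0.17, adjusted p = 4.73e-10).

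RPM fell below naive microglia in *Tbxas1* by 1.62 on the log2 scale (adjusted p = 3.74e-06) and intestinal macrophages by 1.13 (adjusted p = 4.45e-04). Without naive array 3, the array at 9.08, the difference of intestinal macrophages was -0.92 and under 2-fold. F4/80hi cells at 12 weeks differed from naive microglia by -0.16 (95% interval -0.61 to 0.28) and F4/80low cells at 12 weeks by 0.11 (-0.33 to 0.55). Most similar over the 9 group means were *Itpr2* (r = 0.997) and *Tgfbr1* (0.994), the type I receptor of TGF-beta, followed by *Olfr110* (0.991).

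*Hpgd*, the dehydrogenase that inactivates prostaglandins, ran in the order RPM, the CNS groups, intestinal macrophages and monocytes. RPM read 11.13 and 11.11, against 10.31, 10.34, 10.09, 10.33 and 10.59 in naive microglia. Intestinal macrophages read 8.65 and 8.82 and monocytes 8.19, 8.26, 8.25, 8.10 and 8.39. Each of these populations was apart from the others with no overlap. The difference from naive microglia was 0.78 in RPM (adjusted p = 0.00105), under 2-fold, and -1.60 in intestinal macrophages (SE 0.17, adjusted p = 9.88e-08). Intestinal macrophages and monocytes did not differ by the test (adjusted p = 0.063).

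*Hpgd* in F4/80hi cells read 10.05 and 10.25 at 4 weeks and 9.75, 9.87 and 9.67 at 12 weeks. F4/80low cells read 9.84, 10.14 and 10.36 at 4 weeks and 10.25, 9.81 and 10.20 at 12 weeks, and DTR microglia 10.23 and 9.74. The 12-week F4/80hi arrays lay under each naive array and overlapped those of F4/80low cells. They differed from naive microglia by -0.56 (SE 0.17, 1.47-fold lower, adjusted p = 0.0416), which passed the p threshold and not the 2-fold limit. From F4/80low cells at 12 weeks they differed by -0.32 (adjusted p = 0.369). Against monocytes *Hpgd* was higher by 1.90 in F4/80hi cells at 4 weeks (adjusted p = 1.46e-08), 1.53 at 12 weeks (1.98e-08) and 2.09 in naive microglia (1.43e-12). F4/80hi cells at 12 weeks fell below RPM by 1.34 (adjusted p = 7e-05, or by 0.93 and under 2-fold after quantile normalization) and exceeded intestinal macrophages by 1.04 (adjusted p = 0.00162), close to the 2-fold limit and below it without F4/80hi array 2 (0.98) or intestinal array 1 (0.95). *Tspan4* (r = 0.990), *Laptm4b* (0.989) and *Abcb4* (0.978) had the most similar pattern over the 9 group means.

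*Alox5*, the 5-lipoxygenase, was lowest in RPM, at 5.73 and 5.25. Naive microglia read 7.83, 7.72, 9.13, 7.51 and 7.67 and monocytes 6.91, 6.94, 6.57, 7.15 and 7.12. Intestinal macrophages read 7.51 and 7.77, within the naive range. RPM lay below every other array of the series, by -2.62 from naive microglia (SE 0.35, 6.13-fold lower, adjusted p = 1.72e-06). A second *Alox5* transcript of lower signal gave -0.99 (adjusted p = 0.209), so the size of the RPM difference rests on the transcript read.

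*Alox5* in F4/80hi cells read 7.42 and 9.08 at 4 weeks and 7.79, 7.95 and 7.70 at 12 weeks. F4/80low cells read 8.01, 8.05 and 8.29 at 4 weeks and 8.11, 8.08 and 7.97 at 12 weeks, and DTR microglia 7.53 and 7.43. The CNS groups lay on both sides of each other, and array 2 of F4/80hi cells at 4 weeks stood with naive array 3 above all others. F4/80hi cells exceeded monocytes by 1.12 at 4 weeks (SE 0.37, adjusted p = 0.0275) and by 1.01 at 12 weeks (SE 0.31, adjusted p = 0.0129). Both calls are at the limit: at 4 weeks the difference was 0.29 without array 2 (adjusted p = 0.703), 1.13 without monocyte array 4 (0.0605) and 1.11 without monocyte array 5 (0.0651), and at 12 weeks it was 0.88 without the batch term and 0.59 with the second transcript (adjusted p = 0.429). It was under 2-fold there without monocyte array 3 (0.92) or F4/80hi array 2 (0.94). Naive microglia differed from monocytes by 0.97 (adjusted p = 0.0037), under 2-fold.

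*Alox5ap* encodes the 5-lipoxygenase activating protein. Monocytes read 8.46, 8.38, 8.34, 8.63 and 9.01 and naive microglia 8.37, 7.74, 9.37, 8.01 and 8.06, with overlap. RPM read 7.13 and 6.97 and intestinal macrophages 7.09 and 6.72, and both populations lay below every CNS and monocyte array. Against naive microglia the log2 difference was -1.43 in RPM (SE 0.33, adjusted p = 0.00146) and -1.57 in intestinal macrophages (SE 0.33, adjusted p = 7.05e-04). F4/80hi cells read 7.99 and 9.12 at 4 weeks and 7.26, 7.84 and 7.88 at 12 weeks, F4/80low cells 7.61, 8.50 and 8.41 at 4 weeks and 8.17, 7.82 and 7.99 at 12 weeks, and DTR microglia 7.87 and 7.62. On this transcript no CNS group was called against naive microglia or monocytes, and F4/80hi cells at 12 weeks differed from monocytes by -0.73 (adjusted p = 0.0608). The second transcript was called lower than in monocytes in 12-week F4/80hi cells (-1.29, adjusted p = 0.0479) and naive microglia (-1.17, adjusted p = 0.0271).

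Both genes of this first leukotriene step were high in the same 2 arrays, on each of their 2 transcripts. In naive array 3 the second transcript of *Alox5* read 8.74 and that of *Alox5ap* 8.59, against 5.76 to 6.59 and 6.05 to 6.45 in the other naive arrays. F4/80hi array 2 at 4 weeks read 8.47 and 8.45, against 5.71 and 6.25 in array 1. These arrays are the pair with 245 raised transcripts in common, and the part of that in the *Alox5* values was not tested. Without both arrays the *Alox5* difference of F4/80hi cells at 4 weeks from monocytes was 0.43 (adjusted p = 0.228).

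**Figure D4:**
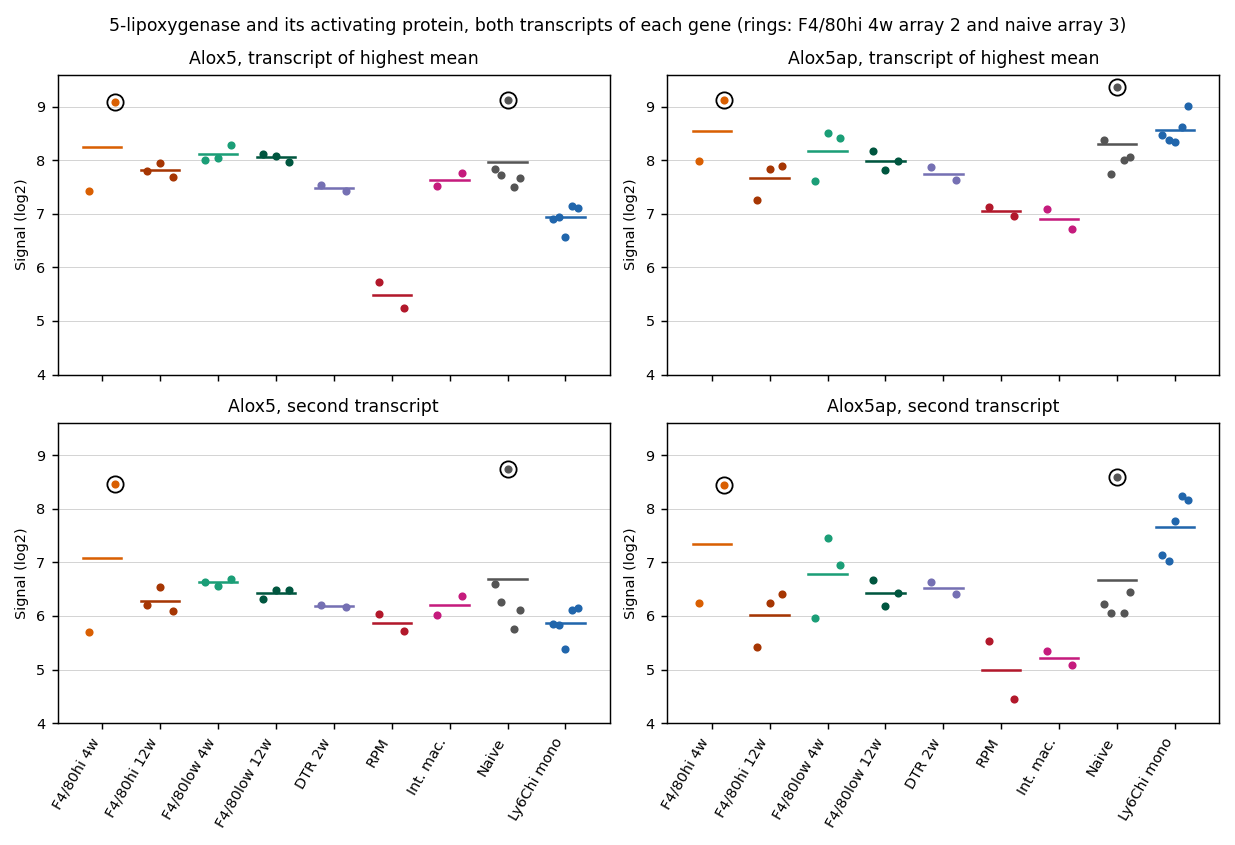
Log2 signal of *Alox5* (left) and *Alox5ap* (right) in each group, for the transcript of highest mean (top) and the second transcript (bottom); points are arrays and lines group means. The ringed arrays, F4/80hi array 2 at 4 weeks and naive array 3, lie at 8.45 or above in all panels.

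*Lta4h*, which makes leukotriene B4, was the member called higher in monocytes than in every other group. Monocytes read 9.72, 9.39, 9.74, 9.93 and 9.87, and no array of the other 8 groups exceeded 8.69. F4/80hi cells read 8.35 and 8.69 at 4 weeks and 7.94, 8.24 and 8.08 at 12 weeks, and naive microglia 8.14, 7.77, 8.32, 8.09 and 8.31. F4/80hi cells fell below monocytes by 1.38 on the log2 scale at 4 weeks (SE 0.19, 2.61-fold lower, adjusted p = 3.68e-06) and by 1.53 at 12 weeks (SE 0.16, 2.89-fold lower, adjusted p = 3.20e-08). Naive microglia fell below them by 1.66 (SE 0.13, adjusted p = 1.88e-10). The summed neutrophil marker signal was 8.17 to 8.92 in 12-week F4/80hi cells, 8.35 to 8.79 in naive microglia and 12.75 to 13.36 in monocytes, and its part in these differences was not tested.

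The other groups did not separate in *Lta4h*. F4/80low cells read 8.07, 8.30 and 8.64 at 4 weeks and 8.21, 7.68 and 7.85 at 12 weeks, and DTR microglia 8.20 and 7.86. RPM read 8.37 and 8.45 and intestinal macrophages 8.31 and 8.29. In the order of means, no neighbours among these 8 groups differed by the test (adjusted p of 0.787 or more), and 0 of their pairs were called. The most similar genes were *Mcemp1* (r = 0.982), *Pkn3* (0.979) and *Degs1* (0.978) over the 9 group means.

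*Ltc4s*, leukotriene C4 synthase, was called in more pairs of groups than any other member. Monocytes read 5.04, 5.17, 4.40, 5.11 and 5.48, around the array median, and RPM 5.98 and 5.73. Naive microglia read 8.93, 9.35, 9.95, 9.52 and 9.22 and intestinal macrophages 7.69 and 7.63. Microglia thus stood highest, then intestinal macrophages, with RPM and monocytes at the low end and no overlap between the 4 populations, although RPM and monocytes did not differ by the test (adjusted p = 0.175). The difference of naive microglia from monocytes was 4.27 (SE 0.19, 19.3-fold, adjusted p = 3.67e-15). Against naive microglia it was -3.71 in RPM (SE 0.26, 13.1-fold lower, adjusted p = 4.93e-11) and -1.91 in intestinal macrophages (SE 0.26, 3.75-fold lower, adjusted p = 3.58e-06).

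*Ltc4s* in F4/80hi cells read 9.12 and 9.31 at 4 weeks and 7.64, 8.21 and 8.21 at 12 weeks. F4/80low cells read 9.22, 9.61 and 10.12 at 4 weeks and 9.95, 9.22 and 9.41 at 12 weeks, and DTR microglia 9.03 and 8.78. The 12-week F4/80hi arrays were the lowest CNS arrays, below each of the 15 others. Their log2 difference was -1.12 from naive microglia (SE 0.25, 95% interval -1.63 to -0.61, 2.17-fold lower, adjusted p = 0.00444) and -1.51 from F4/80low cells of the same time (SE 0.25, 2.84-fold lower, adjusted p = 1.84e-04). Without F4/80hi array 1, the array at 7.64, the first was -0.93 (adjusted p = 0.0426), under 2-fold, while the second stayed called whichever array was left out. The border macrophage markers were high in these arrays (10.34 to 11.06, against 7.98 to 8.23 in F4/80low cells at 12 weeks and 7.71 to 8.28 in naive microglia) and the microglia markers lower (13.28 to 13.57, against 14.01 to 14.18 and 14.15 to 14.42). F4/80hi cells at 4 weeks had border macrophage signals of 10.65 and 11.21 and microglia signals of 13.84 and 13.97, with *Ltc4s* at 9.12 and 9.31. The part of either list in the *Ltc4s* value was not tested.

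F4/80hi cells nevertheless stood far above their monocyte reference in *Ltc4s*, by a log2 difference of 3.92 at 4 weeks (SE 0.28, 15.1-fold, adjusted p = 5.47e-11) and by 3.15 at 12 weeks (SE 0.23, 8.88-fold, adjusted p = 7.52e-11). At 12 weeks they did not differ by the test from intestinal macrophages (0.79, 95% interval 0.09 to 1.48, adjusted p = 0.114). At 4 weeks F4/80hi cells differed from naive microglia by -0.35 (95% interval -0.89 to 0.19) and from F4/80low cells by -0.44 (SE 0.27), neither called. The change of F4/80hi cells from 4 to 12 weeks was -0.77 (SE 0.34, adjusted p = 0.48). The difference between F4/80hi and F4/80low cells was larger at 12 than at 4 weeks by -1.07 (SE 0.37, adjusted p = 0.493), which did not pass. In that comparison of differences 0 of 9 members and 0.118% of all transcripts were called. *Rasgrp3* (r = 0.988), *Rgs10* (0.987) and *Dtx4* (0.977) had the most similar pattern over the 9 group means.

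Mast cells and basophils are known to express *Hpgds*, *Ltc4s* and *Alox5*. Summed over 8 mast cell markers, the signal was 7.50 and 8.79 in F4/80hi cells at 4 weeks, 7.39 to 7.64 at 12 weeks and 7.33 to 7.59 in naive microglia. The markers *Cpa3*, *Mcpt4* and *Fcer1a* lay between 3.8 and 4.7 in the F4/80hi arrays of 12 weeks and the naive arrays, below the array median. The higher value at 4 weeks was that of the neutrophil-rich array 1, in which *Hdc*, the enzyme that makes histamine, read 7.6; the neutrophil-rich F4/80low arrays read 7.4 and 7.7. Monocytes carried the basophil marker *Mcpt8* (7.3 to 8.2, against 4.3 to 4.8 in naive microglia), and its part in the monocyte values was not tested.

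Around these enzymes, 49 further genes of the pathway were listed, for arachidonate release, other synthases, breakdown, transport and receptors, and 43 of them were measured. In F4/80hi cells at 12 weeks 5 of 43 were higher than in naive microglia and 0 lower, against 1.34% and 1.65% of all transcripts. The same counts held against F4/80low cells, where 1.23% of all transcripts were higher and 1.28% lower. The 5 genes were *Cyp4f18*, an oxidase of leukotriene B4, *Ptger4*, the EP4 receptor of prostaglandin E2, *Pla2g7*, which hydrolyses platelet-activating factor, *Mgst1*, a glutathione transferase, and *Cysltr2*, a receptor of cysteinyl leukotrienes, in both comparisons. Against naive microglia 0 of 43 were called in F4/80low cells at 12 weeks (0.115% of all transcripts).

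At 12 weeks *Cyp4f18* read 9.74, 9.51 and 9.57 in F4/80hi cells, 6.56, 6.29 and 6.19 in F4/80low cells and 5.26, 5.39, 5.06, 5.78 and 5.14 in naive microglia. The log2 difference of F4/80hi cells was 4.28 from naive microglia (adjusted p = 5e-10) and 3.26 from F4/80low cells (adjusted p = 3.82e-08). *Ptger4* read 9.36, 9.20 and 9.65 in these F4/80hi cells, 6.99, 7.24 and 6.32 in F4/80low cells and 6.13, 6.19, 6.34, 6.77 and 6.01 in naive microglia. F4/80hi cells stood apart from both groups in either gene, and for *Ptger4* the differences were 3.24 (adjusted p = 1.31e-07) and 2.55 (adjusted p = 5.3e-06). The called difference from naive microglia was 2.13 for *Pla2g7*, 1.47 for *Mgst1* and 1.21 for *Cysltr2*. *Pla2g7* averaged 6.95 in the 12-week F4/80hi cells, against 4.81 in naive microglia, and *Cysltr2* averaged 5.45 in these F4/80hi cells and 4.32 in naive microglia. The naive values of these last 2 genes lie below every array's median, so the size of their differences is not exact. The border macrophage markers were also higher in F4/80hi cells at 12 weeks, at 10.34 to 11.06, against 7.98 to 8.23 in F4/80low cells and 7.71 to 8.28 in naive microglia. They were at 8.52 to 9.84 in F4/80low cells at 4 weeks and at 8.07 and 8.21 in DTR microglia. The part of these markers in the values of the 5 genes was not tested.

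*Cyp4f18* and *Ptger4* were also called in DTR microglia and in both 4-week groups. In DTR microglia 2 of 43 passed (0.754% of all transcripts). There *Cyp4f18* read 7.32 and 7.35 and *Ptger4* 8.07 and 8.16, above every naive array (log2 differences 2.01 and 1.95, adjusted p = 9.42e-04 and 0.00388). In F4/80hi cells at 4 weeks 5 of 43 were higher and 1 lower than in naive microglia, against 1.53% and 1.01% of all transcripts. *Cyp4f18* was at 9.46 and 10.51 in these cells and *Ptger4* at 8.93 and 10.20. F4/80low cells at 4 weeks had 3 higher and 1 lower, against 0.735% and 0.267% of all transcripts. They read 8.99, 8.62 and 7.29 for *Cyp4f18* and 8.26, 8.31 and 6.88 for *Ptger4*. Array 3 was again the lowest of the 3, as in *Ptgs2* and in the neutrophil, monocyte and border macrophage markers. The part of these marker lists in the values was not tested. Without the 3 neutrophil-rich arrays, F4/80low cells kept a *Cyp4f18* difference of 1.97 (adjusted p = 1.91e-04), while that of *Ptger4* was 0.51 (adjusted p = 0.605). The difference of F4/80hi cells at 4 weeks was 5.18 for *Cyp4f18* and 3.83 for *Ptger4* without array 1, and 4.04 and 2.54 without array 2 and naive array 3, the arrays of shared raised transcripts, all called. *Mgst1* was not called without those last 2 arrays (1.07, adjusted p = 0.185). *Ptger3*, the EP3 receptor, was the lower gene in both 4-week groups (log2 difference -1.29 each). Its 4-week arrays read 4.42 to 4.91, below every array's median, so the size is not exact. Without a call, F4/80hi (5.16 to 5.37) and F4/80low arrays (4.92 to 5.14) at 12 weeks also lay under each naive array (5.73 to 6.25). So did the DTR arrays (4.82 and 5.30).

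**Figure D5:**
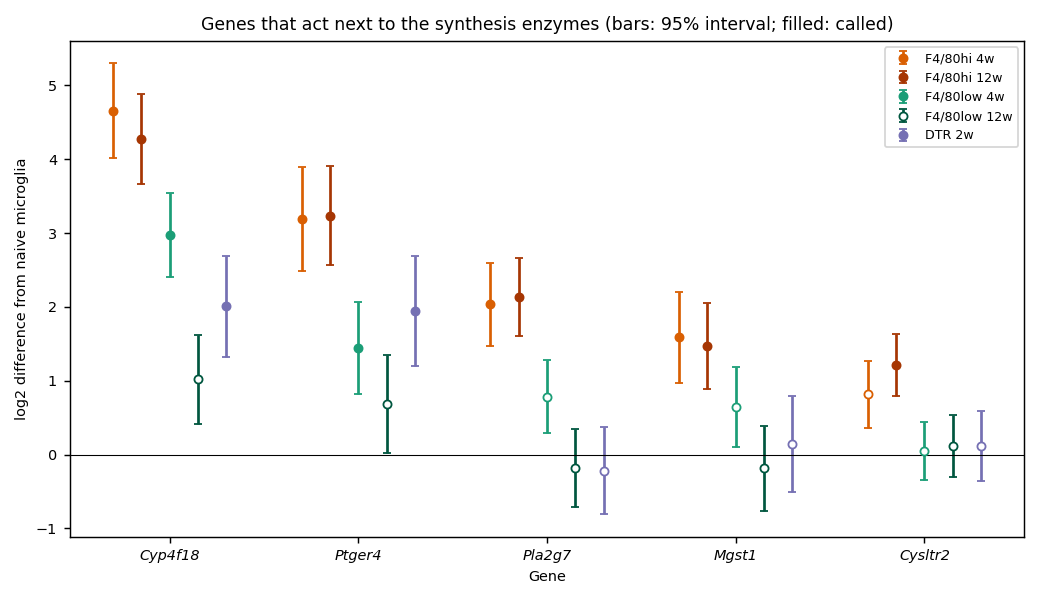
Log2 difference from naive microglia (vertical axis, bars for the 95% interval, filled points for calls) of the 5 genes called in F4/80hi cells at 12 weeks, in the 5 repopulated CNS groups. *Cyp4f18* is called in 4 groups, and *Pla2g7* and *Mgst1* in the 2 F4/80hi groups, where the 4-week call of *Mgst1* is lost without array 2 and naive array 3.

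Against monocytes most of the called pathway genes were lower. In F4/80hi cells at 12 weeks 3 of 43 were higher and 11 lower, against 4.64% and 9.61% of all transcripts. In naive microglia 5 were higher and 13 lower, against 5.48% and 9.15%. *Ltb4r1*, the high-affinity receptor of leukotriene B4, was 4.57 lower on the log2 scale in 12-week F4/80hi cells (5.61 ± 0.23, SD, n = 3) than in monocytes (10.20 ± 0.21, SD, n = 5; adjusted p = 1.54e-15). *Mgst1*, *Mgst2*, which also has leukotriene C4 synthase activity, and *Dpep2*, a dipeptidase that trims leukotriene D4, fell by 3.24, 3.21 and 2.67. The neutrophil markers were at 8.17 to 8.92 in 12-week F4/80hi cells and 12.75 to 13.36 in monocytes. In F4/80hi array 1 at 4 weeks they were at 13.41, with *Mgst1* at 6.65 and *Dpep2* at 5.52, against monocyte means of 10.12 and 7.84. The part of these markers in the differences was not tested. *Cysltr1*, the first receptor of cysteinyl leukotrienes, was higher by 1.39 (adjusted p = 5.09e-05). In 12-week F4/80hi cells *Ptger4* read 9.20 to 9.65, above each monocyte array (8.40 to 8.75). *Cyp4f18* read 9.51 to 9.74, below each monocyte array (9.87 to 10.04), and neither difference was called. In naive microglia *Cyp4f18* and *Ptger4* were called lower than in monocytes, by -4.60 and -2.34.

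RPM and intestinal macrophages were also set against naive microglia in these genes. In RPM 13 of 43 were higher and 2 lower than in naive microglia, against 8.51% and 7.24% of all transcripts, led by *Pla2g2d*, a secreted phospholipase (4.35), *Mgst1* (3.86), *Prxl2b*, a prostaglandin F synthase (3.08), and *Ptgis*, prostacyclin synthase (2.97), with *Cysltr1* lower (-3.30). In intestinal macrophages 8 were higher and 1 lower, against 7.09% and 5.95%, led by *Cyp4f18* (5.34), *Ptger4* (4.17), *Dpep2* (3.46) and *Cysltr2* (3.40). Their *Ptgs2* and *Ptger4* were thus both the highest of the series, at group means of 10.92 and 10.54.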

How the data were processed

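RNA of 27 sorted samples was hybridized by the authors to Affymetrix Mouse Gene 2.1 ST arrays. The deposited values are log2 signals, processed by the authors in Partek; the version, summary, normalization and batch adjustment are not given in the sources used here. Naive microglia and monocytes differ between the batches by the same amount in every transcript (largest gap 1.33e-04), so the values had been adjusted for batch. The fit does not count that earlier adjustment in its degrees of freedom, so p-values may be too small, above all across batches. Of 41345 transcripts, 2145 were blank and 6955 at 0 in every array, and 32245 were tested. Genes were named from the platform annotation (22761 tested transcripts with 1 symbol, 1683 with several, 7801 with none).

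All arrays entered 1 fit in limma 3.58.1 (R 4.3.3) with 9 group means and a batch term (17 residual and 6.23 prior degrees of freedom), with Benjamini-Hochberg adjustment over all tested transcripts of each of 17 comparisons. The thresholds are those of the study. The fit was tested on simulated data. Groups and batches came from the labels. The members, the pathway list and the marker lists were chosen with earlier results of these data known. The genes named are the members, up to 6 called pathway genes a comparison by size, and the 3 genes of most similar group means. *Ptger3* and *Hdc* were named after their values were seen, as were the marker genes. Motifs were searched in RefSeq windows (GRCm38.p6), with pandas 2.3.3 and Python 3.11.15. Alternatives were no batch term, quantile normalization, median centring, the lowest 40% of transcripts left out, a robust variance trend, 1 batch only, CNS arrays only, the second transcript, a replicate block and each array left out.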

Additional observations from a re-analysis of the deposited data

Results flagged for a closer look

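In 18 groups of 5 arrays (naive microglia and monocytes, 9 members each) the highest and lowest array was set against the rest by Dixon's ratio, which chance exceeds in about 1 in 20 groups. It was exceeded in 3. *Alox5* read 9.13 in naive array 3, with a gap to the next array of 0.801 of the group's range. *Ptges* read 5.60 in naive array 2 (0.735) and 5.39 in monocyte array 5 (0.768), both close to the array median. Naive array 3 is the array with raised transcripts in common with F4/80hi array 2 at 4 weeks.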

How the results depend on the processing

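Counts of called members were within 1.5 times the value given in 291 recomputed results and outside that in 9, while of the single differences 551 kept their call, 21 lost it and 0 turned in direction. Without the batch term 1 member was called between F4/80hi cells of 4 weeks and naive microglia (*Ptgs2*, 1.10, adjusted p = 0.0483) and 1 between 12 and 4 weeks in F4/80hi cells (*Ltc4s*, -1.19, adjusted p = 0.0342). F4/80hi cells at 12 weeks against intestinal macrophages gave 5 called members after quantile normalization and 1 with arrays centred on their median. With each array left out, called members ranged from 1 to 3 in that comparison, 0 to 1 in the same cells against naive microglia (0 without F4/80hi array 1), 0 to 1 in F4/80low cells at 4 weeks (1 without array 3) and 0 to 1 in DTR microglia (0 without array 2). Leaving out the neutrophil-rich arrays or the arrays of shared raised transcripts was chosen after seeing the data.

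The study sorted F4/80hi and F4/80low cells from the same brains, but array numbers need not mark which arrays share brains. Same-numbered F4/80hi and F4/80low arrays did not deviate together at 12 weeks (r = -0.0789, -0.103 and -0.0551 across transcripts). At 4 weeks r was 0.282 and -9.10e-04. The numbers were therefore not used as pairs, and any true pairing is left out of the main fit. With a replicate block, 1 member was called at 12 weeks (*Ltc4s*, -1.51, adjusted p = 6.84e-04) and 0 at 4 weeks, as without it. Groups of 2 arrays borrow the spread of the others, an array left alone is assumed to vary like them, and the deposited batch adjustment cannot be undone.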
